A study of Mus musculus with 6 samples.

Results

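Tight junctions are the belts of adhesion near the apex of epithelial cells that set how much water, ions and solutes pass between neighbours. Their strands are built from claudins, membrane proteins with 4 passes through the membrane whose mixture decides how tight or ion-selective a barrier is, together with occludin and the immunoglobulin-like protein JAM-A. On the cytoplasmic side the scaffold ZO-1 and the linker cingulin tie the strands to actin and myosin. The genes described here are 9 members of this system: the claudins Cldn18, Cldn3, Cldn4, Cldn7 and Cldn10, Ocln (occludin), F11r (JAM-A), Tjp1 (ZO-1) and Cgn (cingulin). They were chosen by symbol, and all 9 were found among the 48577 genes of the count files and passed the filter on low counts. Cldn18 was picked because it was higher in tdTomato-positive cells, so its values in that comparison are a description and carry no test. The other 8 were tested with all genes.

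The libraries came from lungs of C57BL/6 Miwi2-tdTomato mice, in which tdTomato fluorescence reports Piwil4, the gene of the Piwi protein MIWI2. Cells without CD45, a leukocyte marker, and with EpCAM, an epithelial marker, were sorted by tdTomato, and 1 tdTomato-positive and 1 tdTomato-negative library was made from each of 3 mice. Both fractions therefore carry the reporter allele, and the labels call both multiciliated. Age, sex and the copies of the allele are not given in the sources used here.

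Counts in genes were 5330584 to 6326395 per library. Mitochondrial rRNA held 17.4% to 19.6% of them in tdTomato-positive and 24.6% to 39.1% in tdTomato-negative libraries, and 19093 to 19924 genes were detected in tdTomato-positive and 21380 to 22437 in tdTomato-negative libraries. Their part in the differences below was not tested. Piwil4 was at 95.7 to 111 CPM (a read count scaled to the size of its library) in tdTomato-positive and 29.97 to 45.6 CPM in tdTomato-negative libraries, and the reporter row had 16 to 37 reads in tdTomato-positive libraries against 0 in each tdTomato-negative one. All 12 multiciliated cell markers listed were measured, with a summed level of 4184 to 5138 CPM in tdTomato-positive and 4056 to 4650 CPM in tdTomato-negative libraries. None was called, 9 of the 12 had a log2 fold change above 0 with a median of 0.42, and 3, Foxj1 among them, were higher with the mouse as a replicate block, which compares the fractions within mice. The most abundant were Dnah12, at 1544 ± 36.1 CPM in tdTomato-positive and 1994 ± 162 CPM in tdTomato-negative libraries, and Cdhr3, at 878 ± 44.7 CPM in tdTomato-positive and 894 ± 42.8 CPM in tdTomato-negative libraries (SD, n = 3 each). In a principal component analysis 1 library was separate: tdTomato-positive mouse 1 scored 79.4 on component 1 (37.6% of variance), and the remaining libraries -35.2 to 7.80. Of 13175 genes tested with edgeR's quasi-likelihood test, 0.622% passed an adjusted p of 0.05, of which 0.0455% of the genes tested were higher and 0.577% lower in tdTomato-positive cells. With the block 3.15% passed, of which 1.36% of the genes tested were higher and 1.79% lower in tdTomato-positive cells.

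Cldn18 encodes claudin-18, known in lung mainly as a claudin of the alveolar epithelium. It was at 569, 608 and 805 CPM in the tdTomato-positive libraries of mice 1, 2 and 3, against 209, 207 and 316 CPM in the tdTomato-negative libraries. Every tdTomato-positive library lay above every tdTomato-negative one, and mouse 3 was the highest in both fractions. The means were 661 ± 127 CPM in tdTomato-positive and 244 ± 62.9 CPM in tdTomato-negative libraries (SD, n = 3 each), a 2.71-fold difference, and the log2 difference within mice 1, 2 and 3 was 1.45, 1.55 and 1.35. Without the tdTomato-positive library of mouse 1 the log2 fold change was 1.54, against 1.44 with it. Per kilobase of exon, Cldn18 ranked 109 of 12742 genes by mean level in tdTomato-positive and 357 in tdTomato-negative libraries.

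**Figure D1:**
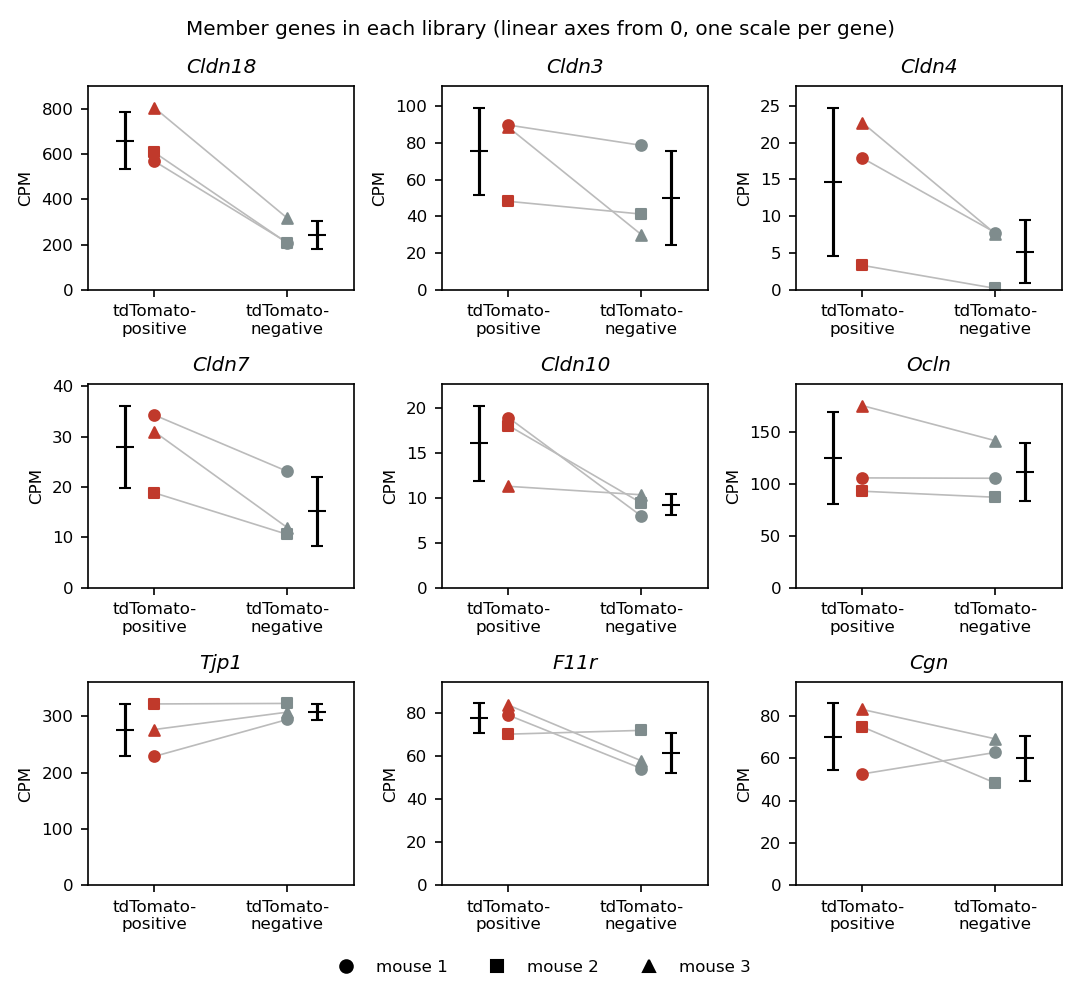
Level of each of the 9 genes in CPM on linear axes from 0, with tdTomato-positive libraries in red on the left and tdTomato-negative libraries in grey on the right; symbols mark the mouse, lines join the libraries of 1 mouse, and black bars give the mean ± SD (n = 3). The 3 Cldn18 values of tdTomato-positive libraries, 569 to 805 CPM, all lie above the tdTomato-negative values of 207 to 316 CPM, and the fractions overlap for every other gene but Cldn10.

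The Cldn18 gene lies on chromosome 9 from 99689461 to 99717267 on the minus strand (GRCm38). It has alternative first exons, and lung and stomach are known to use different ones. The counts add reads of both, so the start site behind the difference was not measured. RefSeq (GRCm38.p6) gives 2 starts, and the 250 bases before each are shown because a reader following up Cldn18 would need to tell them apart. They are written 5′ to 3′ in lower case.
Upstream start, chr9:99717268-99717517, minus strand: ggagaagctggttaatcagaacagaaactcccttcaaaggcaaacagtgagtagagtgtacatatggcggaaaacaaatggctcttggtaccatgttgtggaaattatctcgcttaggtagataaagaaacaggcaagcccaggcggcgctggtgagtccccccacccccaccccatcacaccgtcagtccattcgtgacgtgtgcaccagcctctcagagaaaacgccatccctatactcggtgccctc
Downstream start, chr9:99710064-99710313, minus strand: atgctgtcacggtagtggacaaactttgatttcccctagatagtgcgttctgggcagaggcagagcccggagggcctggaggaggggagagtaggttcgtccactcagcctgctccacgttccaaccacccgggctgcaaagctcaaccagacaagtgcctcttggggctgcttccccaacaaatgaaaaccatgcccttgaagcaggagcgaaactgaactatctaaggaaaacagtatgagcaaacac
Neither window held any of 6 motifs searched on both strands. The share of all 32851 RefSeq start windows of the same length with a match is given beside each. CTCAAG, a core bound by NKX2-1, the homeodomain factor of lung epithelium, was in 13.3% of windows. GGAATG, the core of TEAD factors, was in 12.6% of windows, and the forkhead core TGTTTAC was in 3.17% of them. The E-box CAGGTG, bound by Snail-type repressors, was in 17.2% of windows. The grainyhead-like core AACCGGTT was in 0.116% of windows and the TATA box in 12.4% of them.

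Genes whose mean log2 CPM was 5 or more were compared with Cldn18, symbols of the Gm or Rik form left out. Among these genes, the 6-library profile of Cldn18 was most like that of Piwil4, the gene the sort reports. The root mean square difference between their log2 CPM profiles, each centred on its own mean over the 6 libraries, was 0.21, the smallest of 4206 genes compared. The next were Cdr1 at 0.30 (reads of its antisense transcript are not separable here), the integrin subunit gene Itgb3 at 0.32, Cit (citron kinase) at 0.34 and the integrin subunit gene Itgb4 at 0.35. All of these had tdTomato-positive libraries above all tdTomato-negative ones, which choice by likeness to Cldn18 favours, beside 8.29% of all genes tested. The log2 fold changes of Itgb3, Cit and Itgb4 were 0.94, 0.86 and 0.90. These genes were picked by likeness to Cldn18 in the same libraries, so no test of them is given. Of the 5 other members abundant enough to be compared, the nearest was F11r, in place 515 at 0.63, and the farthest was Tjp1, in place 2943 at 0.86. This measure contains the difference between fractions for which Cldn18 was chosen, so it and the values of the nearest genes are a description.

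Markers of the 2 alveolar epithelial cell types were compared between the fractions beside Cldn18. Alveolar type 2 markers are genes of the surfactant-making cells in which claudin-18 is also known. Of 12 listed, 7 were called lower and none higher, beside 0.577% and 0.0455% of all genes tested. With the replicate block 9 were called lower (Sftpb and Napsa in addition), beside 1.79% of all genes tested. The type 2 markers had a summed level of 594 to 1162 CPM in tdTomato-positive and 6744 to 8118 CPM in tdTomato-negative libraries. Their 2 most abundant members were Lyz2, at 299 ± 70.6 CPM in tdTomato-positive and 2540 ± 810.1 CPM in tdTomato-negative libraries (adjusted p = 0.000448 in edgeR), and Sftpa1, at 196 ± 140 CPM in tdTomato-positive and 1363 ± 147 CPM in tdTomato-negative libraries (edgeR adjusted p = 0.22; SD, n = 3 each). Of 9 alveolar type 1 markers tested none was called, with a summed level of 326 to 414 CPM in tdTomato-positive and 321 to 391.5 CPM in tdTomato-negative libraries. The median log2 fold change of the type 1 markers tested was -0.86, and 4 of the 9 were above 0. Pdpn, a defining marker of that cell type, had 0 reads in all 6 libraries, and Ager, another, was at 1.74 ± 0.406 CPM in tdTomato-positive and 8.72 ± 2.19 CPM in tdTomato-negative libraries (SD, n = 3 each). Its edgeR adjusted p was 0.0575 without and 0.0135 with the block for mouse, under which Vegfa of the same list was also lower. The most abundant of the list were Emp2, at 132 ± 10.8 CPM in tdTomato-positive and 107 ± 14.0 CPM in tdTomato-negative libraries, and Clic5, at 112 ± 20.2 CPM in tdTomato-positive and 95.8 ± 9.82 CPM in tdTomato-negative libraries. Between the fractions, Cldn18 was higher and the summed type 2 marker level lower in tdTomato-positive libraries. Within the fractions the order varied. Mouse 3, with the most Cldn18 in each, had the lowest tdTomato-positive type 2 sum (594 CPM) and the highest tdTomato-negative one (8118 CPM). The part of these cell types in the Cldn18 difference was not tested, and in bulk RNA fewer cells of a type and less RNA per cell cannot be told apart.

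The 4 other claudins of the set were called by the main test in neither direction, although each had a higher level in tdTomato-positive cells of all 3 mice. Of the 13175 genes tested, 19.8% were higher in all 3 mice. Cldn4 and Cldn3 encode barrier-forming claudins and are neighbours on chromosome 5, 39.3 kilobases apart on opposite strands. The annotation had 0 genes lying wholly between them, a count that leaves out a gene overlapping Cldn3. Cldn7 encodes a claudin found along the lateral membrane of many epithelia.

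Cldn4 had 106, 21 and 143 reads in the tdTomato-positive libraries of mice 1, 2 and 3, against 40, 1 and 39 reads in the tdTomato-negative ones. These were 17.9, 3.32 and 22.7 CPM in tdTomato-positive and 7.76, 0.192 and 7.60 CPM in tdTomato-negative libraries. Mouse 2 was the lowest in both fractions, and the fractions overlapped only through it. The log2 fold change was 1.49 with a 95% interval of -0.87 to 3.86 (edgeR adjusted p = 0.638). With the replicate block it was 1.72 with an interval of 0.80 to 2.64 (edgeR adjusted p = 0.0386), the 1 call among the 8 genes under that model, in which 1.36% of all genes tested were called higher. That call was lost in the blocked model without mouse 2 or without mouse 3, where the log2 fold change was 1.39 and 1.93 (edgeR adjusted p = 0.0705 and 0.46), and kept without mouse 1, at 2.03 (edgeR adjusted p = 0.00446).

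Cldn3 was at 89.9, 48.3 and 88.6 CPM in tdTomato-positive and 78.8, 41.3 and 30.03 CPM in tdTomato-negative libraries. The difference came mostly from mouse 3, at 1.55 on the log2 scale, against 0.19 and 0.22 in mice 1 and 2. The log2 fold change was 0.59, with an interval of -0.20 to 1.39 (edgeR adjusted p = 0.59). Cldn7 was at 34.3, 18.8 and 31.0 CPM in tdTomato-positive and 23.1, 10.6 and 11.9 CPM in tdTomato-negative libraries. Its log2 difference was likewise largest in mouse 3, at 1.35, against 0.56 and 0.81 in mice 1 and 2. The log2 fold change of Cldn7 was 0.88, with an interval of 0.10 to 1.67 (edgeR adjusted p = 0.42). With the replicate block the log2 fold change of Cldn3 was 0.64, with an interval of 0.13 to 1.15 (edgeR adjusted p = 0.182). That of Cldn7 was 0.92, with an interval of 0.33 to 1.51 (edgeR adjusted p = 0.0872). These intervals are not adjusted for the number of genes tested, and by adjusted p neither gene passed. Both passed in the blocked model without mouse 1 (edgeR adjusted p = 0.017 for Cldn3 and 0.0436 for Cldn7), in which 4.76% of all genes tested were called and 2.1% were called higher. Neither passed without mouse 2 (edgeR adjusted p = 0.158 for Cldn3 and 0.115 for Cldn7) or without mouse 3 (0.866 for Cldn3 and 0.635 for Cldn7).

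The windows before the starts of the neighbouring genes Cldn4 and Cldn3 are printed because their within-mouse values differed in mice 1 and 2. On the log2 scale these were 1.17, 2.75 and 1.54 for Cldn4 in mice 1, 2 and 3, against 0.19, 0.22 and 1.55 for Cldn3. The Cldn4 value of mouse 2 came from 21 reads against 1, and a part of the windows in these values was not tested. Capitals mark the only match to the searched motifs, the E-box CAGGTG on the opposite strand (written CACCTG) of the Cldn4 window.
Cldn4, chr5:134946935-134947184, minus strand: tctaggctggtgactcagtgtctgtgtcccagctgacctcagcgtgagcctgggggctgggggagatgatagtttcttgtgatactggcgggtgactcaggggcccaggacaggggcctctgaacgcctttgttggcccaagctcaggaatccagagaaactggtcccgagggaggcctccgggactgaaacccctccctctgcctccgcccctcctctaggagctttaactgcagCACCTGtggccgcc
Cldn3, chr5:134985964-134986213, plus strand: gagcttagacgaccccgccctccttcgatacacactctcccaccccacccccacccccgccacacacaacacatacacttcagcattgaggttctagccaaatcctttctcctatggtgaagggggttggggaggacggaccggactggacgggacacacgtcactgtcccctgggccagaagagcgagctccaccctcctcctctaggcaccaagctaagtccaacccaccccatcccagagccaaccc
RefSeq held 13 start windows for the 9 genes. This E-box was in 4 of them, CTCAAG in 3 and GGAATG in 1, beside 17.2%, 13.3% and 12.6% of all RefSeq windows. The forkhead core, the grainyhead-like core and the TATA box were each in 0 of the 13. A match of letters is no evidence of binding here, and a window without one says nothing of the factor.

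Cldn10, whose product forms ion-selective paracellular channels and which is known in airways from club cells, was low. It was at 18.9, 18.04 and 11.3 CPM in tdTomato-positive and 7.95, 9.41 and 10.3 CPM in tdTomato-negative libraries. It was the 1 gene of the 8 whose fractions did not overlap, in a table where 8.29% of all genes tested had every tdTomato-positive library above every tdTomato-negative one. In mouse 3 the gap was 0.12 on the log2 scale, against 1.21 and 0.91 in mice 1 and 2. The log2 fold change was 0.80, with an interval of 0.07 to 1.52 (edgeR adjusted p = 0.425; blocked for mouse, 0.278). The summed level of club cell markers was 8626 to 22133 CPM in tdTomato-positive and 4878 to 8328 CPM in tdTomato-negative libraries, and all 10 had a log2 fold change above 0. None was called by the main test and 6, Scgb1a1 and Cbr2 among them, were called higher with the replicate block, beside 1.36% of all genes tested. The most abundant were Scgb1a1, at 9443 ± 6271 CPM in tdTomato-positive and 2030 ± 1316 CPM in tdTomato-negative libraries, and Cbr2, at 3329 ± 463 CPM in tdTomato-positive and 1979 ± 599 CPM in tdTomato-negative libraries (SD, n = 3 each). The median log2 difference of the club list was 1.69, 1.37 and 0.95 in mice 1, 2 and 3. The part of club cells in the Cldn10 values was not tested.

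**Figure D2:**
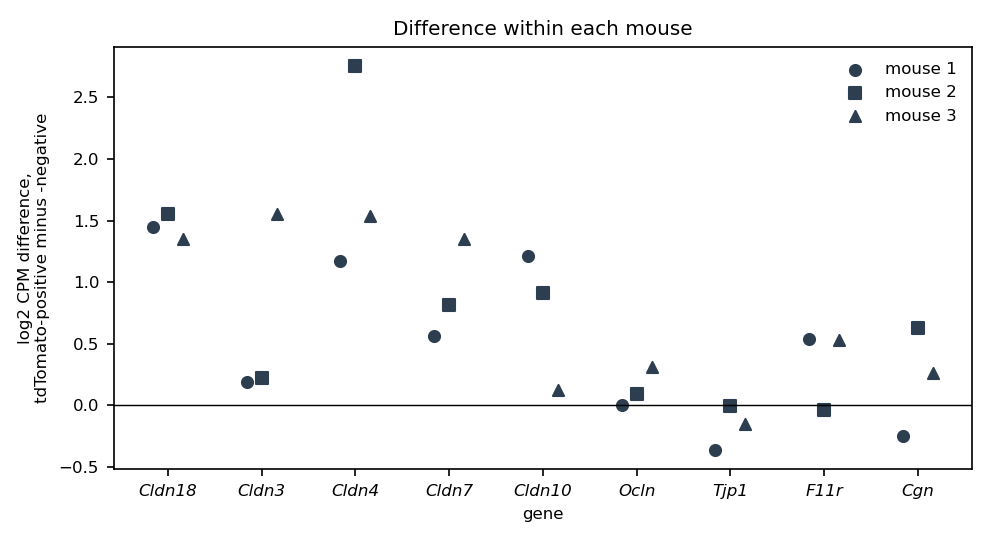
Difference in log2 CPM (prior count of 2), tdTomato-positive minus tdTomato-negative, within each mouse for each gene; symbols mark the mouse and the line marks 0. Cldn18 lies between 1.35 and 1.55 in all 3 mice, Cldn4 between 1.17 and 2.75, while Tjp1 lies between -0.36 and -0.004.

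The claudins were also compared with one another within each library, over the 23 claudin genes listed. Cldn18 held 68.9%, 80.1% and 79.4% of claudin reads in the tdTomato-positive libraries of mice 1, 2 and 3, against 51.6%, 64.6% and 74.4% in the tdTomato-negative libraries. As Cldn18 was chosen for its rise, these shares are a description and carry no test. Exact binomial 95% intervals cover counting error only. In tdTomato-positive libraries of mice 1, 2 and 3 they ran from 67.6% to 70.2%, 78.9% to 81.2% and 78.4% to 80.4%. In tdTomato-negative libraries they ran from 49.4% to 53.7%, 62.3% to 66.9% and 72.6% to 76.3%. Cldn18 was the claudin with the most reads in every library, and its share was higher in the tdTomato-positive library of each mouse, by 17.3, 15.4 and 4.92 percentage points. The fractions overlapped between mice, since the tdTomato-negative share of mouse 3 was above the tdTomato-positive share of mouse 1. Without the tdTomato-negative library of mouse 1 the difference of the means was 6.57 points, against 12.6 points with it.

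Per kilobase of exon, which allows genes to be compared, Cldn18 held 56.7% ± 8.56 of the claudin signal in tdTomato-positive and 43.6% ± 13.4 in tdTomato-negative libraries (SD, n = 3 each). Cldn3 was next, at 22.5% ± 4.28 in tdTomato-positive and 30.1% ± 10.6 in tdTomato-negative libraries. In the tdTomato-negative library of mouse 1 the order was turned round, with Cldn3 at 40.3% and Cldn18 at 30.1%. Among reads of the other 4 claudins alone, Cldn3 held 56.03% ± 1.58 in tdTomato-positive and 61.4% ± 9.77 in tdTomato-negative libraries, and Cldn7 held 20.9% ± 0.652 in tdTomato-positive and 18.9% ± 1.49 in tdTomato-negative libraries (SD, n = 3 each). The difference for Cldn3 was smaller than the spread between tdTomato-negative libraries. Cldn4 ranged from 3.76% to 14.8% in tdTomato-positive and from 0.312% to 12.7% in tdTomato-negative libraries, and Cldn10 from 7.34% to 20.4% in tdTomato-positive and from 6.77% to 17.3% in tdTomato-negative libraries.

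**Figure D3:**
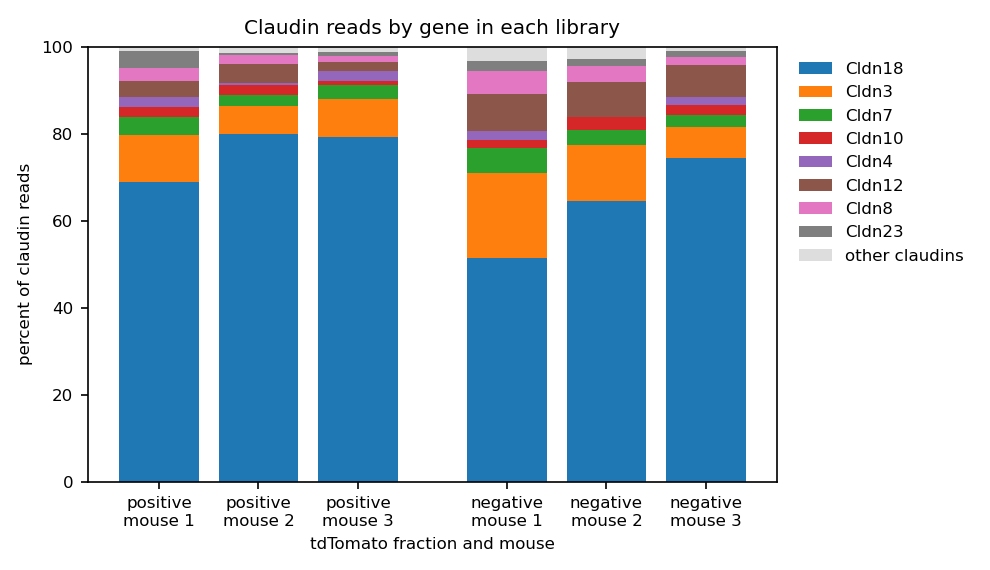
Percent of claudin reads held by each claudin gene in each library, tdTomato-positive libraries on the left and tdTomato-negative libraries on the right; bars sum to 100%. Cldn18, the lowest segment, takes 68.9% to 80.1% in tdTomato-positive and 51.6% to 74.4% in tdTomato-negative libraries.

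Neither of the membrane proteins beside the claudins was called. Ocln, which encodes the 4-pass protein occludin, was at 106, 93.03 and 176 CPM in tdTomato-positive and 106, 87.2 and 142 CPM in tdTomato-negative libraries. Mouse 3 was the highest in both fractions, and the log2 fold change was 0.16, with an interval of -0.41 to 0.73 (edgeR adjusted p = 0.855). F11r, which encodes JAM-A, was at 78.9, 70.1 and 83.5 CPM in tdTomato-positive and 54.1, 71.8 and 57.7 CPM in tdTomato-negative libraries. Mice 1 and 3 were higher in the tdTomato-positive library, by 0.54 and 0.53 on the log2 scale, and mouse 2 was at -0.04. The log2 fold change of F11r was 0.34, with an interval of -0.08 to 0.75 (edgeR adjusted p = 0.558).

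Neither cytoplasmic partner was called. Tjp1, which encodes ZO-1, the scaffold that binds claudin tails, was at 229, 322 and 276 CPM in tdTomato-positive and 294, 323 and 307 CPM in tdTomato-negative libraries. It was the 1 gene of the 9 with a value below 0 in all 3 mice, at -0.36, -0.004 and -0.15 on the log2 scale. The log2 fold change was -0.16, with an interval of -0.53 to 0.21 (edgeR adjusted p = 0.767), so a fall of more than 0.53 or a rise of more than 0.21 lies outside the interval; with library size only as the scaling it was 0.11. Cgn, which encodes cingulin, was at 52.5, 74.7 and 82.9 CPM in tdTomato-positive and 62.7, 48.2 and 69.03 CPM in tdTomato-negative libraries. Mouse 1 was lower and mice 2 and 3 were higher in the tdTomato-positive library, and the log2 fold change was 0.22, with an interval of -0.27 to 0.72 (edgeR adjusted p = 0.757). Summed over Ocln, F11r, Tjp1 and Cgn, levels were 548 ± 76.8 CPM in tdTomato-positive and 541 ± 31.04 CPM in tdTomato-negative libraries, and summed over the 5 claudins 795 ± 143 CPM in tdTomato-positive and 324 ± 54.1 CPM in tdTomato-negative libraries (SD, n = 3 each), most of it Cldn18. The 4 claudins without Cldn18 summed to 134 ± 39.9 CPM in tdTomato-positive and 79.6 ± 32.9 CPM in tdTomato-negative libraries (SD, n = 3 each), and the fractions overlapped.

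Over the 8 genes other than Cldn18, none passed the edgeR threshold, 2 (Cldn7 and Cldn10) had an unadjusted p under 0.05, and DESeq2 and limma-voom called none. Of all genes tested, 10.7% had an unadjusted p under 0.05 and 52.7% had a log2 fold change above 0. With the replicate block 4 of the 8 had an unadjusted edgeR p under 0.05, beside 2100 of the 13175 genes tested. In the main fit the median log2 fold change of the 8 was 0.47, beside 0.03 over all genes tested. In that fit 7 of the 8 were above 0 (with library size only as the scaling, Tjp1 was too). Without the tdTomato-positive library of mouse 1, the log2 fold changes of Cldn3, Cldn4, Cldn7 and Cldn10 were 0.46, 1.33, 0.72 and 0.67, and those of Ocln, F11r, Tjp1 and Cgn were 0.27, 0.33, -0.04 and 0.40, and none was called.

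Levels per kilobase of exon set the genes in order. In tdTomato-positive libraries Cldn18 was highest, at 148 ± 28.5 CPM per kilobase, above the range of every other member. Cldn3 followed at 60.03 ± 18.8, Tjp1 at 35.3 ± 5.95, Ocln at 29.6 ± 10.5 and F11r at 29.1 ± 2.56 CPM per kilobase (SD, n = 3), and the ranges of neighbours in this group overlapped. Below a gap came Cldn7 at 14.4 ± 4.18, Cgn at 11.6 ± 2.61, Cldn4 at 8.06 ± 5.56 and Cldn10 at 6.20 ± 1.61 CPM per kilobase, again with overlapping neighbours. In tdTomato-negative libraries Cldn18 was at 54.7 ± 14.1, Cldn3 at 39.7 ± 20.3 and Tjp1 at 39.4 ± 1.82 CPM per kilobase, and the range of Cldn3 overlapped both others while that of Cldn18 lay above that of Tjp1. Ocln at 26.4 ± 6.58 and F11r at 22.99 ± 3.52 followed, then Cgn at 9.96 ± 1.77, Cldn7 at 7.79 ± 3.53, Cldn10 at 3.56 ± 0.463 and Cldn4 at 2.86 ± 2.38 CPM per kilobase (SD, n = 3). The spread between mice also differed by gene: the SD was 8.81% of the mean for F11r and 68.9% for Cldn4 in tdTomato-positive libraries, and 4.61% for Tjp1 and 83.4% for Cldn4 in tdTomato-negative ones.

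Beyond the 9 genes, 62 other tight junction genes in 6 lists were examined. Of these, 45 passed the filter and none was called (edgeR); 3 had an unadjusted p under 0.05 (Mylk and Amotl1 among them, named for that), DESeq2 called 1 (Mylk) and limma-voom none. Their median log2 fold change was 0.03, the same to 2 decimals as over all genes tested, and 25 were above 0. Every tdTomato-positive library was above every tdTomato-negative one for 3 of the 45 and below for 5, beside 8.29% and 9.02% of all genes tested.

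Of 18 other claudins, 11 had at least 1 read and 5 were tested. The most abundant was Cldn12, at 28.4 ± 6.72 CPM in tdTomato-positive and 30.6 ± 4.61 CPM in tdTomato-negative libraries (SD, n = 3 each; adjusted p by edgeR = 0.912). Cldn8 was at 18.1 ± 6.67 CPM in tdTomato-positive and 13.8 ± 6.71 CPM in tdTomato-negative libraries (SD, n = 3 each, edgeR adjusted p = 0.762). Cldn23 was at 15.4 ± 14.3 CPM in tdTomato-positive and 6.40 ± 2.395 CPM in tdTomato-negative libraries (SD, n = 3 each, edgeR adjusted p = 0.541). The log2 difference of Cldn23 was 1.74, -0.31 and 1.00 in mice 1, 2 and 3. Its log2 fold change was 1.26, against 0.22 without the tdTomato-positive library of mouse 1 and 0.55 without mouse 1. Cldn5, the claudin of endothelial cells that is also known in alveolar epithelium, had 0 reads in all 6 libraries, which allows up to 0.475 to 0.507 CPM in tdTomato-positive and 0.576 to 0.585 CPM in tdTomato-negative libraries at 3 counts.

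Proteins of the corners where cells meet included Marveld2 (tricellulin), at 51.3 ± 7.59 CPM in tdTomato-positive and 46.8 ± 1.89 CPM in tdTomato-negative libraries, and the angulins Lsr, at 28.99 ± 19.9 CPM in tdTomato-positive and 17.7 ± 2.61 CPM in tdTomato-negative libraries, and Ildr1, at 14.8 ± 3.14 CPM in tdTomato-positive and 21.2 ± 1.11 CPM in tdTomato-negative libraries (SD, n = 3 each; in edgeR, adjusted p = 0.844, 0.622 and 0.537 in the order named). Of the immunoglobulin-like proteins, Cxadr, the coxsackievirus and adenovirus receptor, was at 199.6 ± 44.3 CPM in tdTomato-positive and 201 ± 37.2 CPM in tdTomato-negative libraries, Igsf5 at 36.4 ± 6.97 CPM in tdTomato-positive and 36.6 ± 6.30 CPM in tdTomato-negative libraries, and Jam2 at 7.64 ± 6.18 CPM in tdTomato-positive and 11.4 ± 1.96 CPM in tdTomato-negative libraries (SD, n = 3 each; adjusted p by edgeR = 0.991, 0.994 and 0.724). Without the tdTomato-positive library of mouse 1 the log2 fold change of Jam2 was -1.46, against -0.57 with it. The 95% interval of Cxadr was -0.46 to 0.44 on the log2 scale.

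Of 13 scaffold genes tested, the most abundant were Magi3, at 124 ± 32.1 CPM in tdTomato-positive and 161 ± 14.6 CPM in tdTomato-negative libraries, Inadl (the scaffold PATJ), at 114 ± 33.6 CPM in tdTomato-positive and 112 ± 3.87 CPM in tdTomato-negative libraries, and Mpp5 (PALS1), at 92.4 ± 27.7 CPM in tdTomato-positive and 126 ± 7.18 CPM in tdTomato-negative libraries (SD, n = 3 each; in edgeR, adjusted p = 0.543, 0.97 and 0.506 in the order named). Every tdTomato-positive library lay below the tdTomato-negative ones for Mpp5. Apical polarity genes were led by Prkci (atypical protein kinase C iota), at 387 ± 36.5 CPM in tdTomato-positive and 344 ± 67.9 CPM in tdTomato-negative libraries, Lin7c, at 178 ± 16.6 CPM in tdTomato-positive and 169.8 ± 14.02 CPM in tdTomato-negative libraries, and Pard3, at 73.6 ± 11.5 CPM in tdTomato-positive and 70.8 ± 3.85 CPM in tdTomato-negative libraries (SD, n = 3 each; adjusted p by edgeR = 0.77, 0.905 and 0.936).

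Regulators of the junction were led by Grhl2, a transcription factor of epithelial junction genes, at 99.8 ± 16.9 CPM in tdTomato-positive and 100.4 ± 7.03 CPM in tdTomato-negative libraries, Epcam, whose product binds claudin-7 and was used in the gate, at 101 ± 32.6 CPM in tdTomato-positive and 81.98 ± 22.04 CPM in tdTomato-negative libraries, and Arhgef2, whose product is bound by cingulin, at 91.03 ± 9.46 CPM in tdTomato-positive and 71.4 ± 5.79 CPM in tdTomato-negative libraries (SD, n = 3 each; in edgeR, adjusted p = 0.993, 0.72 and 0.518 in the order named). Mylk, the myosin light chain kinase that contracts the junctional actin ring and is also abundant in smooth muscle, was at 3.31 ± 3.31 CPM in tdTomato-positive and 15.5 ± 4.46 CPM in tdTomato-negative libraries (SD, n = 3 each; adjusted p by edgeR = 0.191). With the replicate block its fall was called (edgeR adjusted p = 0.00457), the 1 call of the 45 under that model, in which 1.79% of all genes tested were called lower. All 6 mesenchymal markers tested had a log2 fold change below 0, with a summed level of 17.6 to 95.7 CPM in tdTomato-positive and 31.98 to 193 CPM in tdTomato-negative libraries, and none was called. The most abundant were Fn1, at 26.7 ± 20.6 CPM in tdTomato-positive and 38.4 ± 34.0 CPM in tdTomato-negative libraries, and Vim, at 17.3 ± 9.91 CPM in tdTomato-positive and 47.7 ± 37.1 CPM in tdTomato-negative libraries (SD, n = 3 each). Their part in the Mylk values was not tested.

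**Figure D4:**
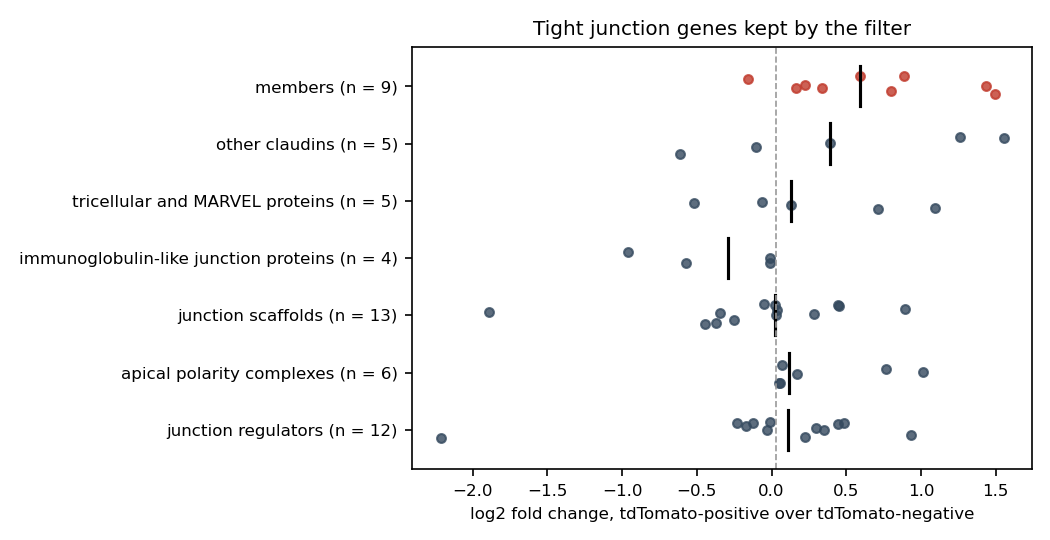
Log2 fold change, tdTomato-positive over tdTomato-negative, of each tight junction gene that passed the filter, by list; red points are the 9 genes described here, black bars are list medians and the dashed line is the median of all genes tested, 0.03. All 4 immunoglobulin-like genes lie below 0, with Cxadr and Igsf5 at -0.011 and -0.0088 (above 0 with library size only as the scaling). All 6 polarity genes lie above 0, with Pard3 and Lin7c at 0.055 and 0.069, and both reversed in some alternative runs. The remaining lists lie on both sides of 0, and 52.7% of all genes tested lie above it.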

How the data were processed

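The authors deposited 1 file of raw read counts per gene symbol for each of 6 libraries. Per the labels' protocols, RNA was extracted with Trizol, the Ovation RNA-Seq System V2 amplified the cDNA, and libraries were TruSeq Nano. Tools named in the submitters' processing notes are STAR 2.4.2a, cutadapt 1.7.1, HTSeq, FastQC and DESeq2, with GRCm38.p4 and mm10 as builds. The strand setting and annotation used for counting are not given in the sources used here. Reads that overlapping or antisense genes share may therefore be assigned to either; among the 9 genes, exons of Cldn3 overlap another gene by 40 bases. The 5 HTSeq summary rows entered neither library sizes nor tests, and the row for reads in no gene held 41.0% to 49.4% of each file's total.

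From the deposited counts, edgeR 4.0.16 (R 4.3.3) gave CPM with TMM factors, log2 fold changes, standard errors and two-sided quasi-likelihood p-values, Benjamini-Hochberg adjusted over the 13175 genes kept by filterByExpr. No mouse term was in the model. Per the labels, same-numbered libraries are from the same individual, which pairs the samples; over all genes tested, deviations of the 2 libraries of mice 1, 2 and 3 from their group means correlated at 0.263, 0.254 and 0.346. The blocked value is given where it changes the call of a gene or list named, other than the profiles nearest to Cldn18. Intervals are log2 fold change ± a t quantile times the standard error. Exon lengths and positions are from GENCODE M21 (GRCm38). Libraries of 1 group differed by more than sampling noise. DESeq2 1.42.0 and limma-voom 3.58.1 were alternatives.

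The members and gene lists were chosen with earlier results of these data known. Named genes were all 9 members, the 3 genes of highest mean CPM and any called gene of each junction list, the 5 profiles nearest to Cldn18 and the 2 most abundant genes of each marker list; others were named after their values were seen, and 1 gene is not reported here by name. Of the further marker lists, endothelial and leukocyte genes had summed levels of 11.6 to 28.2 and 31.3 to 65.7 CPM in tdTomato-positive and 10.7 to 16.7 and 62.8 to 192 CPM in tdTomato-negative libraries. None was called by the main test; Ptprc and Lcp1 were lower with the block. Their most abundant genes were Kdr, at 11.9 ± 6.51 CPM in tdTomato-positive and 5.93 ± 1.02 CPM in tdTomato-negative libraries, Vwf, at 2.91 ± 2.93 CPM in tdTomato-positive and 4.45 ± 1.93 CPM in tdTomato-negative libraries, Lcp1, at 30.4 ± 6.76 CPM in tdTomato-positive and 76.7 ± 29.2 CPM in tdTomato-negative libraries, and Ptprc, at 5.01 ± 4.31 CPM in tdTomato-positive and 28.8 ± 23.0 CPM in tdTomato-negative libraries (SD, n = 3 each). No molecular identifiers were used, so floors of 3 counts and binomial intervals cover counting error only.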

Additional observations from a re-analysis of the deposited data

How the results depend on the processing

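With 3 mice, intervals of single genes such as Cldn4 and Cldn23 were wide, which limits what could be detected. Genes called numbered 82, and 413 with no filter on low counts, 247 with DESeq2 and 415 with the replicate block; leaving out 1 library or 1 mouse gave 22 to 113, and the blocked model without mouse 1, 2 or 3 (chosen after seeing the data) 633, 380 and 59. Of the 8 members other than Cldn18, 0 were called in every run without the block that was made, and 1 with the replicate block (3, 0 and 0 without mouse 1, 2 or 3). Of the other tight junction genes 0 were called, but 2 with no filter (Mylk and Pard6b), 1 with DESeq2 and 1 with the replicate block; leaving out 1 library or mouse gave 0 to 1, and the blocked model without mouse 1, 2 or 3 gave 4, 4 and 0. For Cldn18, chosen for its rise, the values are a description and their direction is no sign of stability: its share of claudin reads differed by 6.57 to 18.02 points over 12 alternatives and its log2 fold change lay between 1.27 and 1.69 over 20.

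Over 580 alternatives for 29 single genes, 509 kept direction and call, 17 lost a call (all Piwil4 or tdTomato), 7 gained one and 47 reversed direction, none of these with a call; the cause was not tested. With library size only, where the median of all genes was 0.29 on the log2 scale, the log2 fold changes of Tjp1, Cldn12, Cxadr, Igsf5 and Grhl2 were 0.11, 0.14, 0.22, 0.23 and 0.25. With no filter those of Cxadr, Igsf5 and Grhl2 were 0.0018, 0.0043 and 0.0069, with the stricter filter those of Igsf5 and Grhl2 were 0.0021 and 0.0034, and with DESeq2 those of Cxadr, Igsf5 and Grhl2 were 0.011, 0.012 and 0.011. Inadl was at -0.0067 with limma-voom and -0.0073 with the replicate block. Leaving out 1 library or mouse gave -0.16 to 0.37 for Ocln, -0.35 to 0.087 for Cldn12, -0.030 to 0.22 for Marveld2, -0.21 to 0.16 for Cxadr, -0.18 to 0.16 for Igsf5, -0.22 to 0.22 for Inadl, -0.0036 to 0.14 for Lin7c, -0.098 to 0.15 for Pard3 and -0.16 to 0.13 for Grhl2. In the blocked model, without mouse 3 Cldn12, Marveld2, Cxadr, Igsf5 and Lin7c were at 0.10, -0.031, 0.15, 0.15 and -0.0081, without mouse 2 Inadl and Pard3 were at -0.24 and -0.097, and without mouse 1 Grhl2 was at 0.13.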
